A study of Mus musculus with 8 samples.

Results

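Of the 48 genes of mitosis and chromosome segregation described here, 46 were measured in primary mouse articular chondrocytes, among 22180 genes in all. The 48 were named by their function in cell division, with earlier results of these arrays known. Each was matched by symbol to the probe sets that the platform annotation gives to 1 gene, and all 46 had a single such probe set. Ccnb1, which encodes cyclin B1, had no probe set listed under its own symbol, and Ncapg, a condensin I subunit gene, had one only in common with Lcorl, so neither was analysed here. Gene expression was measured on 8 arrays of total RNA. The chondrocytes came from the cartilage of femoral condyles and tibial plateaus of wild-type ICR mice, 5 days old, and grew as a monolayer in medium with fetal bovine serum. On 4 arrays the RNA came from cells infected with the control adenovirus Ad-null, and on the other 4 from cells infected with Ad-Zip8, an adenovirus that expresses the zinc transporter ZIP8. RNA was taken 24 h after infection in both groups, so every sample carried an adenovirus and no uninfected culture was compared. The labels call the samples biological replicates without naming the animals or pools behind each culture, and a p-value here therefore reflects only how these particular samples varied. The design asks what added ZIP8 does to the transcriptome of these cells.

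Mitosis divides the replicated chromosomes between the daughter cells. Cyclin-dependent kinase 1 with cyclins A and B, the Polo-like kinase and the Aurora kinases drive entry, condensin and topoisomerase II compact the chromosomes, kinetochores attach them to the spindle, and the spindle checkpoint holds back the anaphase-promoting complex until all are attached. Many of these genes share a transcription peak in late G2 and M phase, so their RNA is commonly read as a mark of dividing cells. Chondrocytes of young cartilage still divide and do so in serum-containing monolayer culture, whereas those of adult articular cartilage seldom do.

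With Ad-Zip8, 44 of the 46 measured genes rose, none fell (0 had a lower mean at an unadjusted limma p under 0.05) and 2, Smc4 and Spc24, did not pass an adjusted p of 0.05. Over all 22180 genes 5.48% rose and 5.12% fell at the same threshold. Every one of the 46 had all 4 Ad-Zip8 arrays above all 4 Ad-null arrays, an arrangement found in 7.89% of all genes. The median log2 change of the 46 was 0.98, a 1.97-fold difference, against -0.02 over all genes, and the changes ran from 0.21 for Smc4 to 1.43 for Ndc80. An increase of at least 2-fold was reached by 18 of the 46, and 40 passed a log2 change of 0.5. Ranked by size of increase among the 22180 genes, no member stood among the first 100 and 38 of the 46 (82.6%) stood among the first 500. In such bulk RNA, more dividing cells in a culture and more RNA of these genes per cell cannot be told apart.

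**Figure D1:**
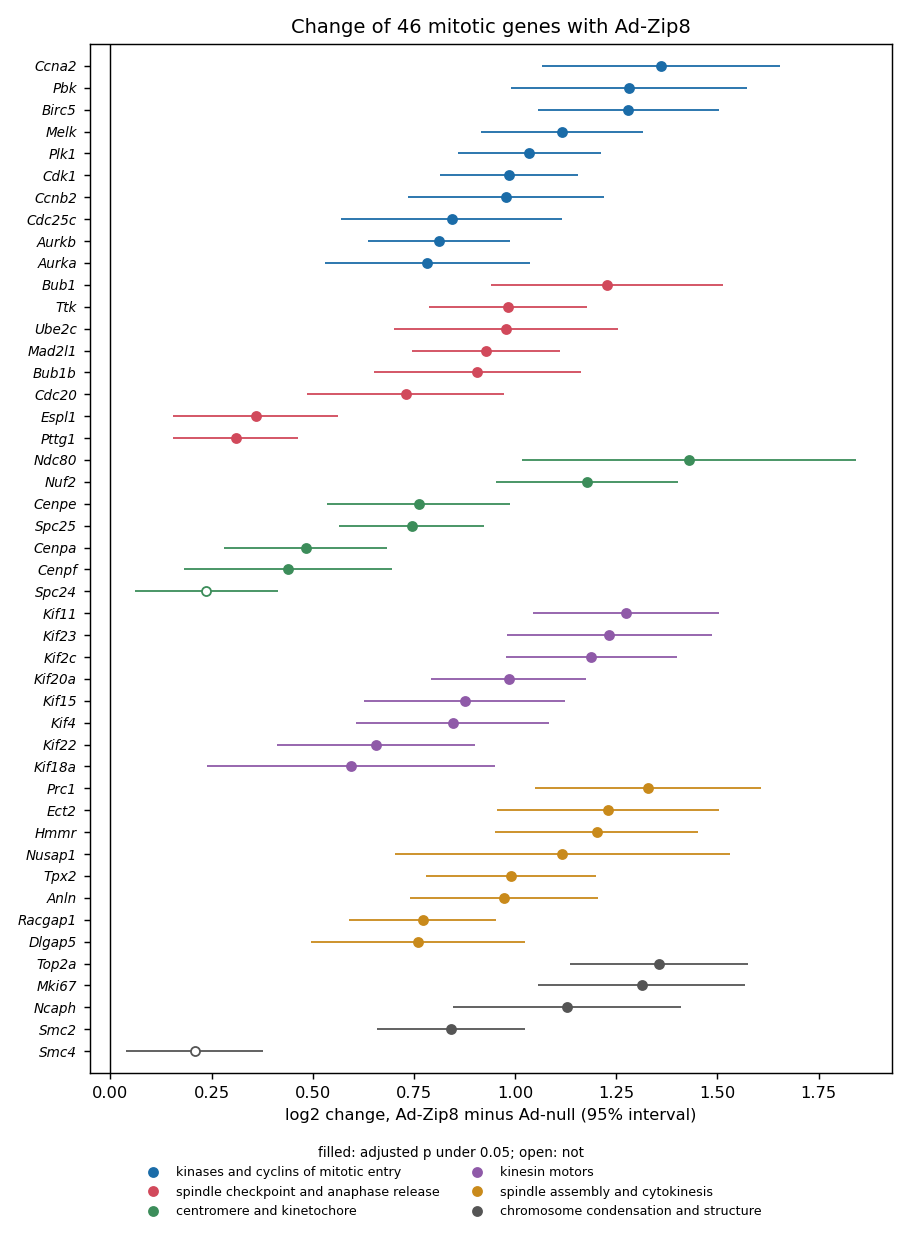
Log2 change, Ad-Zip8 minus Ad-null (x axis), of each of the 46 measured genes (y axis), with the 95% interval of the limma fit as a bar and colours for 6 role classes. All 46 points lie to the right of 0, from 0.21 to 1.43, and the 2 open circles, Spc24 and Smc4, did not pass an adjusted p of 0.05.

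Slc39a8, the gene of ZIP8, was 30.4-fold higher with Ad-Zip8 (limma adjusted p = 3.49e-09), as the labels state. Correlations over all genes were 0.991 to 0.994 between arrays of the same group and 0.979 to 0.986 across groups. The chondrocyte markers were at the upper end of the scale, with group means per gene of 9.71 to 13.46 (log2). Of the 15 such markers 12 fell and none rose with Ad-Zip8, for example the matrilin 1 gene Matn1 (2.20-fold lower, adjusted p = 0.000216). The count was 11 with the replicate block, where Comp missed the threshold (adjusted p = 0.0503). It was 9 to 12 without 1 array at a time, with the lost calls among Comp, Col11a1 and Cnmd. Col2a1 and Sox9 did not pass (log2 changes of -0.22 and -0.19, adjusted p = 0.079 and 0.137). Both were called lower with the variance trend (0.00587 and 0.0207) and with dim genes left out (0.0206 and 0.0431). Under each of these 2 settings 14 of the 15 markers fell. The mean of the list was 12.10 to 12.19 on the Ad-null arrays and 11.43 to 11.72 on the Ad-Zip8 arrays, so it moved opposite to the mitotic genes. Of 9 fibroblast markers, Lum, Dcn and Pdgfra rose (1.90-, 1.63- and 1.81-fold) and Col1a2 fell (1.31-fold, adjusted p = 0.0218), with list means of 8.52 to 8.96 and 8.79 to 9.07. The Col1a2 call was lost without Ad-null replicate 1, 2 or 4 (adjusted p = 0.0627, 0.0601 and 0.0616), without Ad-Zip8 replicate 2 or 3 (0.0538 and 0.0523) and with all probe sets tested (0.0618). Dpt, at a log2 change of -0.93, did not pass (adjusted p = 0.139) but was called lower with the replicate block (0.0142) and without Ad-null replicate 3 (0.0189). Macrophage markers averaged 4.74 to 4.92 with Ad-null and 4.62 to 4.73 with Ad-Zip8, and 8 of the 9 lay below the median gene. In that list Laptm5 fell 1.65-fold and the others did not pass. Endothelial markers averaged 4.51 to 4.58 and 4.58 to 4.69, and skeletal muscle markers 5.06 to 5.15 and 5.01 to 5.13, with 0 of 7 and 0 of 6 past the threshold (0 in either list at an unadjusted p under 0.05). Of 9 markers of blood progenitors and erythroid cells 4 were measured, with list means of 4.90 to 5.28 and 5.15 to 5.61. None passed, with Kit at a log2 change of 0.57 (adjusted p = 0.0673) and Cd34 at 0.69 (adjusted p = 0.0878). Cd34 was called higher with the replicate block (adjusted p = 0.00188), the variance trend (0.038), dim genes left out (0.0385) and without Ad-Zip8 replicate 3 (0.0325). Kit was called higher with the variance trend (0.0328) and without Ad-Zip8 replicate 2 (0.0205). No marker of these lists can be called absent from such values, and the part of other cell types in the rise of the mitotic genes was not tested.

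The promoters of many members share short sequence elements, which are shown here because the genes moved together. The cell cycle genes homology region (CHR, letters TTTGAA) and the CCAAT box (letters CCAAT) are known as elements of genes transcribed in G2 and M phase, bound by the MuvB-containing complexes and by NF-Y. Both were searched on both strands in RefSeq windows (assembly GRCm38.p6) of 300 bases, 250 before the start and 50 after it. The letters of the CHR and the CCAAT box can share at most 1 base. There were 39 windows for 37 members. The CHR letters stood in 29 of the 39 (74.4%, in 27 members), against 17.9% of all 32851 windows, and the CCAAT letters in 27 (69.2%) against 37.4%. Both stood in 25 windows (64.1%), against 7.0% of all windows. Letters of E2F sites (TTTCCCGC, TTTCGCGC, TTTGCCGC or TTTGGCGC, which share no base with the CHR letters and at most 1 with CCAAT) stood in 3 windows (7.7%) against 2.3%. A match is a description of the letters and not a sign of binding, and the motifs were chosen with results of these arrays known.

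The 250 bases before the start are printed for 4 of the genes with the smallest adjusted p whose windows held both elements there, Top2a, Cdk1, Kif11 and Mki67. They run 5′ to 3′ on the strand of the gene, with CHR letters (TTTGAA, or TTCAAA where the motif lies on the other strand) and CCAAT letters (CCAAT, or ATTGG) in capitals. Their positions in GRCm38.p6 are chr11:99024190-99024439 (minus strand) for Top2a, chr10:69352913-69353162 (minus) for Cdk1, chr19:37376132-37376381 (plus) for Kif11 and chr7:135716380-135716629 (minus) for Mki67.
Top2a: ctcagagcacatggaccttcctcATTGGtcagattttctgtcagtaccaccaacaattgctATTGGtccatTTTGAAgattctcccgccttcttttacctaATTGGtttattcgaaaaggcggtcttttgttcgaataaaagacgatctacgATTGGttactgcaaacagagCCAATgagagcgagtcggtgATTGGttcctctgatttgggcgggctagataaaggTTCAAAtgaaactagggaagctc
Cdk1: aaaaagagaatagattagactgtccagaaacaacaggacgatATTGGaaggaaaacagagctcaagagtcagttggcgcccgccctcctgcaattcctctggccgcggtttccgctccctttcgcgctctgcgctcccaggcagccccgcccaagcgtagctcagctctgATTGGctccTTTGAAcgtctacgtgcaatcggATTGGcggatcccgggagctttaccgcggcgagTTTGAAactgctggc
Kif11: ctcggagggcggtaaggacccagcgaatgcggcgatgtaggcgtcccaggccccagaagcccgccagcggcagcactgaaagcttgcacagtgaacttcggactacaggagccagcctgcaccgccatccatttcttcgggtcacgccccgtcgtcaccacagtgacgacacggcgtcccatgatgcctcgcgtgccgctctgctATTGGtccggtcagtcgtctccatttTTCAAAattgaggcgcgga
Mki67: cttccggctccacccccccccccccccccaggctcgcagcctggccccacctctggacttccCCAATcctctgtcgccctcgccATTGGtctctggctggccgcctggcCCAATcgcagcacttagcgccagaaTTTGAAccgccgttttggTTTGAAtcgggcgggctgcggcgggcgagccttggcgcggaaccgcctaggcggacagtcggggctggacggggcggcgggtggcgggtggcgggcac
The Top2a stretch held 2 CHR matches, the nearer one beginning at position -23 from the start, and 6 CCAAT matches. In Cdk1 the nearer of 2 CHR matches began at position -15 and 3 CCAAT matches lay upstream of it. Kif11 had 1 of each, at -19 and -45. Mki67 had 2 CHR matches, at -116 and -98, and 3 CCAAT matches upstream of both.

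Members with and without the CHR letters rose alike in direction. The 27 members with a match had a median log2 change of 0.98, the 10 with a window and no match 1.12, and the 9 with no window 0.84, given here without a test. Birc5, Bub1, Nuf2, Melk and Ncaph were among the 10 without a match and each rose at least 2-fold. By role class the share of windows with a CHR match ran from 62.5% in the spindle checkpoint class to 87.5% in the spindle assembly class. Among other gene lists it was 51.4% for other mitotic genes, 35% for transcriptional regulators of mitotic genes, 12.5% for subunits of the anaphase-promoting complex, 12.5% for cohesin and 11.1% for DNA replication genes.

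All 10 measured kinases, cyclins and other regulators of mitotic entry rose, by a median log2 change of 1.01. Plk1 encodes Polo-like kinase 1, which acts at entry, at centrosomes and at kinetochores. The log2 values of Plk1 were 7.30, 7.37, 7.18 and 7.12 with Ad-null and 8.26, 8.30, 8.36 and 8.19 with Ad-Zip8. The groups were apart by 0.82 between the highest Ad-null and the lowest Ad-Zip8 array, and the gene rose 2.05-fold (log2 change of 1.03, SE 0.08, limma adjusted p = 4.22e-05). Cdk1 encodes the kinase that starts mitosis. On the log2 scale Cdk1 stood at 6.49, 6.34, 6.39 and 6.40 with Ad-null and at 7.54, 7.30, 7.36 and 7.37 with Ad-Zip8. Its Ad-null arrays lay within a narrow range, without overlap, and it rose 1.98-fold (log2 change of 0.99, SE 0.08, adjusted p = 4.6e-05). Birc5 encodes survivin, a subunit of the chromosomal passenger complex that works with Aurora B. With Ad-null, Birc5 gave log2 values of 4.60, 4.16, 4.33 and 4.36, and with Ad-Zip8 5.72, 5.72, 5.53 and 5.60. It rose 2.43-fold (log2 change of 1.28, SE 0.10, adjusted p = 4.71e-05) without overlap, from an Ad-null mean of 4.36 that was below the median gene, where background compresses differences.

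Cyclin and phosphatase genes of this class moved with them. Ccna2, the cyclin A2 gene, had the largest change of the class at 2.57-fold (means 7.17 ± 0.23 and 8.53 ± 0.19, SD, n = 4 each, adjusted p = 0.000151), and Ccnb2, the cyclin B2 gene, rose 1.97-fold. The value of cyclin B1, the main partner of Cdk1, was not analysed here. Cdc25c, whose product removes inhibitory phosphates from Cdk1, rose 1.79-fold. The Aurora kinase genes changed less than Plk1 in fold: Aurka, which acts at spindle poles, rose 1.72-fold and Aurkb, the kinase of the passenger complex, 1.76-fold, a difference between genes that was not tested. Melk rose 2.17-fold and Pbk 2.43-fold, both genes of kinases that peak in dividing cells. The largest adjusted p of the class was 0.00168, for Aurka.

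**Figure D2:**
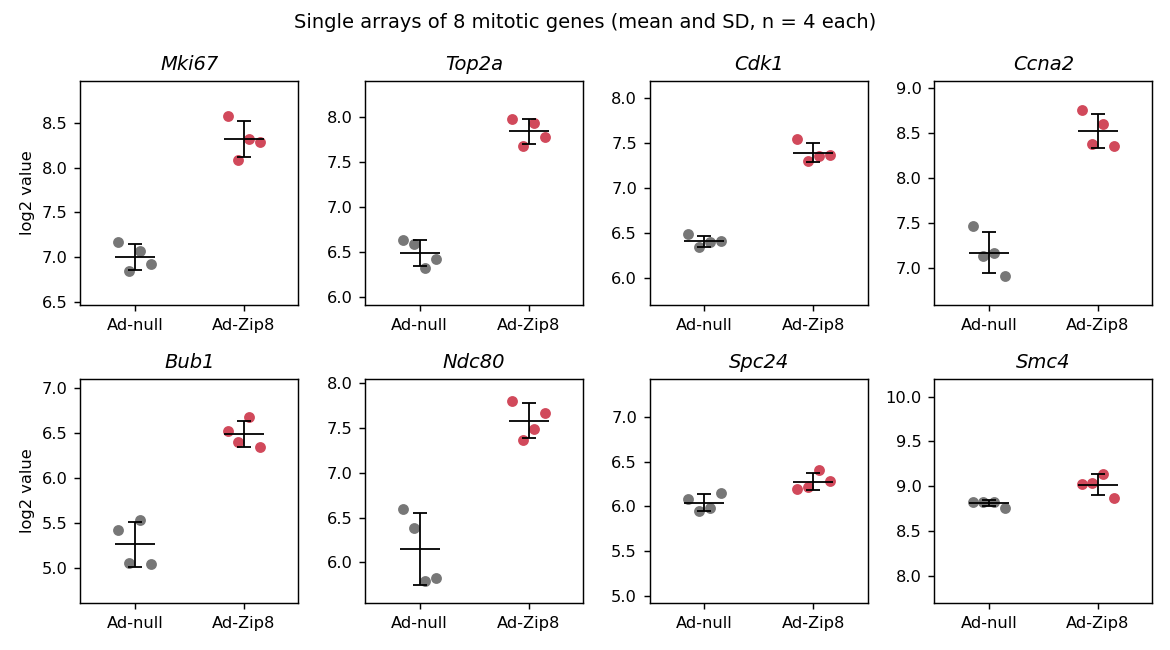
Log2 value on each array (points, y axis) for 8 genes in Ad-null and Ad-Zip8 (x axis), with the mean as a horizontal line and the SD as a bar, n = 4 each; every panel spans the same number of log2 units. Ad-Zip8 lies above Ad-null without overlap in all 8, widely for Mki67, Top2a, Cdk1, Ccna2, Bub1 and Ndc80 and by 0.05 and 0.04 for Spc24 and Smc4.

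All 8 genes of the spindle checkpoint and of anaphase release rose, with a median log2 change of 0.92, but they covered a wide range of sizes. Mad2l1 encodes MAD2, which binds and holds CDC20 while kinetochores are unattached. Mad2l1 read 6.41, 6.35, 6.18 and 6.28 on the 4 Ad-null arrays and 7.30, 7.09, 7.32 and 7.21 on the 4 Ad-Zip8 arrays (log2). The groups lay apart and the gene rose 1.90-fold (log2 change of 0.93, SE 0.08, adjusted p = 8.97e-05). Ttk encodes the kinase MPS1, which recruits the checkpoint proteins to kinetochores. The log2 values of Ttk were 5.50, 5.16, 5.19 and 5.20 with Ad-null and 6.28, 6.19, 6.25 and 6.27 with Ad-Zip8. It rose 1.98-fold (log2 change of 0.98, SE 0.09, adjusted p = 9.85e-05), and Ad-null replicate 1 stood above the other 3 of its group. Bub1 encodes a checkpoint kinase of the kinetochore. On the log2 scale Bub1 stood at 5.42, 5.05, 5.53 and 5.04 with Ad-null and at 6.52, 6.41, 6.67 and 6.34 with Ad-Zip8. Ad-null replicates 1 and 3 were the higher ones of their group, all below every Ad-Zip8 array, and the gene rose 2.34-fold (log2 change of 1.23, SE 0.13, adjusted p = 0.000232).

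Bub1b, the BUBR1 gene of the same checkpoint, rose 1.87-fold. Cdc20, the activator that the checkpoint holds back, rose 1.66-fold and Ube2c, the ubiquitin-conjugating enzyme of the anaphase-promoting complex, 1.97-fold. The genes of the last step changed least. Pttg1 encodes securin, the inhibitor of separase, and rose 1.24-fold (log2 change of 0.31, SE 0.07, adjusted p = 0.0179). Espl1 encodes separase, the protease that opens cohesin rings at anaphase, and rose 1.28-fold (0.36, SE 0.09, adjusted p = 0.0327). Securin's call was lost without Ad-null replicate 1 (adjusted p = 0.051) and without Ad-Zip8 replicate 2 (0.0552). That of separase was lost without Ad-null replicate 1, 2 or 4 (0.0562, 0.0891 and 0.0882) and without Ad-Zip8 replicate 1, 2 or 3 (0.0706, 0.0784 and 0.0734). Both kept every Ad-Zip8 array above every Ad-null array.

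Centromere and kinetochore genes rose in 6 of 7 cases, with a median log2 change of 0.74. The NDC80 complex, the main microtubule attachment of the kinetochore, has the 4 subunits Ndc80, Nuf2, Spc24 and Spc25, with log2 changes from 0.24 to 1.43. With Ad-null, Nuf2 gave log2 values of 6.53, 6.34, 6.16 and 6.11, and with Ad-Zip8 7.49, 7.39, 7.57 and 7.41. Nuf2 rose 2.26-fold without overlap (log2 change of 1.18, SE 0.10, adjusted p = 7.82e-05). Spc25 read 5.94, 5.78, 5.78 and 6.02 on the 4 Ad-null arrays and 6.68, 6.56, 6.61 and 6.65 on the 4 Ad-Zip8 arrays (log2). It rose 1.68-fold, again without overlap (log2 change of 0.74, SE 0.08, adjusted p = 0.000277). The log2 values of Ndc80 were 6.60, 6.39, 5.80 and 5.83 with Ad-null and 7.80, 7.37, 7.49 and 7.67 with Ad-Zip8. The Ad-null arrays fell into a higher pair, replicates 1 and 2, and a lower pair, yet all lay below Ad-Zip8, and the 2.69-fold rise was the largest of the 46 genes (log2 change of 1.43, SE 0.18, adjusted p = 0.000843).

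The fourth subunit differed in its call. On the log2 scale Spc24 stood at 6.08, 5.95, 5.98 and 6.15 with Ad-null and at 6.20, 6.22, 6.40 and 6.29 with Ad-Zip8. The groups were separated by 0.05, and the 1.18-fold difference did not pass (a log2 change of 0.24, 95% interval 0.06 to 0.41, SE 0.08, adjusted p = 0.0954, range over the alternatives 0.0303 to 0.212). The interval of Spc24 ended below the lower ends of the intervals of Spc25 (0.57), Nuf2 (0.95) and Ndc80 (1.02), although the difference between subunits was not tested and each has its own probes. Cenpe, the kinetochore motor that aligns chromosomes, rose 1.70-fold, and Cenpa, the histone H3 variant that marks centromeres, 1.40-fold. Cenpf, a large outer kinetochore protein gene, rose 1.36-fold (log2 change of 0.44, SE 0.12, adjusted p = 0.0376) with 0.02 between the groups. Its call was lost without Ad-null replicate 1, 2 or 3 (adjusted p = 0.103, 0.0924 and 0.0878) and without Ad-Zip8 replicate 1, 3 or 4 (0.0597, 0.0817 and 0.0867).

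All 8 mitotic kinesins among the members rose, with a median log2 change of 0.93. Kif11 encodes the Eg5 motor that pushes spindle poles apart. With Ad-null, Kif11 gave log2 values of 6.30, 6.23, 6.12 and 5.93, and with Ad-Zip8 7.55, 7.24, 7.49 and 7.39. It rose 2.42-fold without overlap (log2 change of 1.27, SE 0.10, adjusted p = 5.25e-05). Kif2c encodes MCAK, which takes apart microtubule ends at centromeres. Kif2c read 6.23, 6.26, 6.02 and 6.29 on the 4 Ad-null arrays and 7.55, 7.22, 7.44 and 7.34 on the 4 Ad-Zip8 arrays (log2). With the groups well apart, it rose 2.28-fold (log2 change of 1.19, SE 0.09, adjusted p = 5.25e-05). Kif20a encodes MKLP2, which brings the passenger complex to the central spindle. The log2 values of Kif20a were 7.75, 7.46, 7.54 and 7.47 with Ad-null and 8.64, 8.49, 8.56 and 8.46 with Ad-Zip8. Ad-null replicate 1 was the highest of its group and still 0.71 below the lowest Ad-Zip8 array, for a 1.98-fold rise (log2 change of 0.98, SE 0.09, adjusted p = 8.59e-05).

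Kif23, the motor of the centralspindlin complex, rose 2.35-fold, the chromokinesin gene Kif4 1.80-fold, and Kif15, a spindle motor that can act beside Eg5, 1.83-fold. Kif22, another chromokinesin gene, rose 1.58-fold, a value that is uncertain because the reference lists a pseudogene, Kif22-ps. Kif18a, whose motor limits chromosome oscillation, rose 1.51-fold with the largest adjusted p among called members (0.041; log2 change 0.60, SE 0.16). The call of Kif18a was lost without Ad-null replicate 2 or 3 (adjusted p = 0.0931 and 0.0728) and without Ad-Zip8 replicate 1, 2 or 3 (0.112, 0.0744 and 0.085). Kinesin genes outside this list and outside the other mitotic genes, taken as all those in the table after the members had been examined, were counted as well. Of those 29, most of them known for transport along microtubules, 0 rose and 1 fell, Kif21b, at 1.82-fold (limma adjusted p = 0.000134). At an unadjusted limma p under 0.05, 0 of the 29 were higher and 5 lower, against 2282 and 2745 of all 22180 genes. The median log2 change of the 29 was -0.02.

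All 8 genes of spindle assembly and cytokinesis rose, with a median log2 change of 1.05. Hmmr encodes a hyaluronan receptor that is also a spindle-pole protein. On the log2 scale Hmmr stood at 5.57, 5.33, 5.22 and 5.21 with Ad-null and at 6.76, 6.36, 6.46 and 6.56 with Ad-Zip8. It rose 2.30-fold without overlap (log2 change of 1.20, SE 0.11, adjusted p = 0.000126). Prc1 encodes the bundler of the central spindle. With Ad-null, Prc1 gave log2 values of 7.09, 6.88, 6.95 and 6.53, and with Ad-Zip8 8.36, 8.16, 8.24 and 8.003. Ad-null replicate 4 was the lowest array of that gene, and Prc1 rose 2.51-fold (log2 change of 1.33, SE 0.12, adjusted p = 0.000131). Tpx2 encodes the activator of Aurora A on the spindle. Tpx2 read 7.26, 7.25, 6.96 and 7.01 on the 4 Ad-null arrays and 8.22, 8.08, 8.15 and 7.98 on the 4 Ad-Zip8 arrays (log2). Its groups lay 0.73 apart, for a 1.99-fold rise (log2 change of 0.99, SE 0.09, adjusted p = 0.000136).

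The genes that place and close the contractile ring followed. Ect2, the activator of RhoA at the midzone, rose 2.35-fold, its partner Racgap1 1.71-fold and the ring scaffold gene Anln 1.96-fold. Of the microtubule-binding proteins, Nusap1 rose 2.17-fold, with the most variable Ad-null arrays of this class (SD 0.40, n = 4), and Dlgap5, the HURP gene, 1.69-fold. The largest adjusted p of this class was 0.00363, for Nusap1.

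Of the 5 measured genes of chromosome condensation and structure 4 rose, with a median log2 change of 1.13. Top2a encodes topoisomerase II alpha, which untangles and helps compact the chromosomes. The log2 values of Top2a were 6.63, 6.58, 6.32 and 6.42 with Ad-null and 7.98, 7.68, 7.93 and 7.78 with Ad-Zip8. The lowest Ad-Zip8 array was 1.05 above the highest Ad-null array, and the 2.56-fold rise had the smallest adjusted p of the 46 genes (log2 change of 1.36, SE 0.10, adjusted p = 2.9e-05). Mki67 encodes Ki-67, the coat protein of mitotic chromosomes that is used to count cycling cells. On the log2 scale Mki67 stood at 7.17, 6.85, 7.07 and 6.92 with Ad-null and at 8.58, 8.08, 8.32 and 8.28 with Ad-Zip8. Every Ad-Zip8 array was higher by at least 0.91, and Mki67 rose 2.49-fold (log2 change of 1.31, SE 0.11, adjusted p = 8.6e-05). Their promoter stretches are among those printed above.

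The condensin genes were uneven. Smc2 encodes one of the pair of core ATPases common to condensins I and II. With Ad-null, Smc2 gave log2 values of 6.56, 6.49, 6.41 and 6.28, and with Ad-Zip8 7.37, 7.27, 7.28 and 7.19. It rose 1.79-fold without overlap (log2 change of 0.84, SE 0.08, adjusted p = 0.000155). Smc4 encodes the other core ATPase. Smc4 read 8.82, 8.83, 8.82 and 8.76 on the 4 Ad-null arrays and 9.03, 9.04, 9.14 and 8.86 on the 4 Ad-Zip8 arrays (log2). Ad-Zip8 replicate 4 was only 0.04 above the highest Ad-null array, and the 1.16-fold difference did not pass (a log2 change of 0.21, 95% interval 0.04 to 0.38, SE 0.08, adjusted p = 0.128, range over the alternatives 0.043 to 0.256). Ncaph, a subunit gene of condensin I alone, rose 2.19-fold. Of the 4 condensin genes measured outside the members 3 rose: Ncapg2 of condensin II 2.05-fold (adjusted p = 0.000144), Ncapd2 of condensin I 1.55-fold (0.00259) and Ncapd3 of condensin II 1.31-fold (0.0261). The call of Ncapd3 was lost without Ad-null replicate 3 (adjusted p = 0.0551), without Ad-Zip8 replicate 1 or 3 (0.0698 and 0.0518) and with all probe sets tested (0.0716). Ncaph2 of condensin II did not pass (log2 change of -0.06, adjusted p = 0.756).

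Within each group the arrays differed little beside the difference between groups, and they differed together. Taking each member's deviation from its mean over 8 arrays, the Ad-null arrays averaged -0.30, -0.47, -0.53 and -0.57 over the 46 genes (replicates 1 to 4) and the Ad-Zip8 arrays 0.56, 0.41, 0.50 and 0.39. Ad-null replicate 1 held the highest Ad-null value of 30 members and Ad-Zip8 replicate 1 the highest Ad-Zip8 value of 31. Ad-null replicate 4 held the lowest of its group in 20 and Ad-Zip8 replicate 4 in 25. Between arrays of the same replicate number all 46 members were higher in Ad-Zip8 for each of the 4 numbers, with median differences of 0.87, 0.92, 1.05 and 0.98. The median SD within a group was 0.17 for Ad-null and 0.13 for Ad-Zip8, and 11 of the 46 members varied more in Ad-Zip8.

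**Figure D3:**
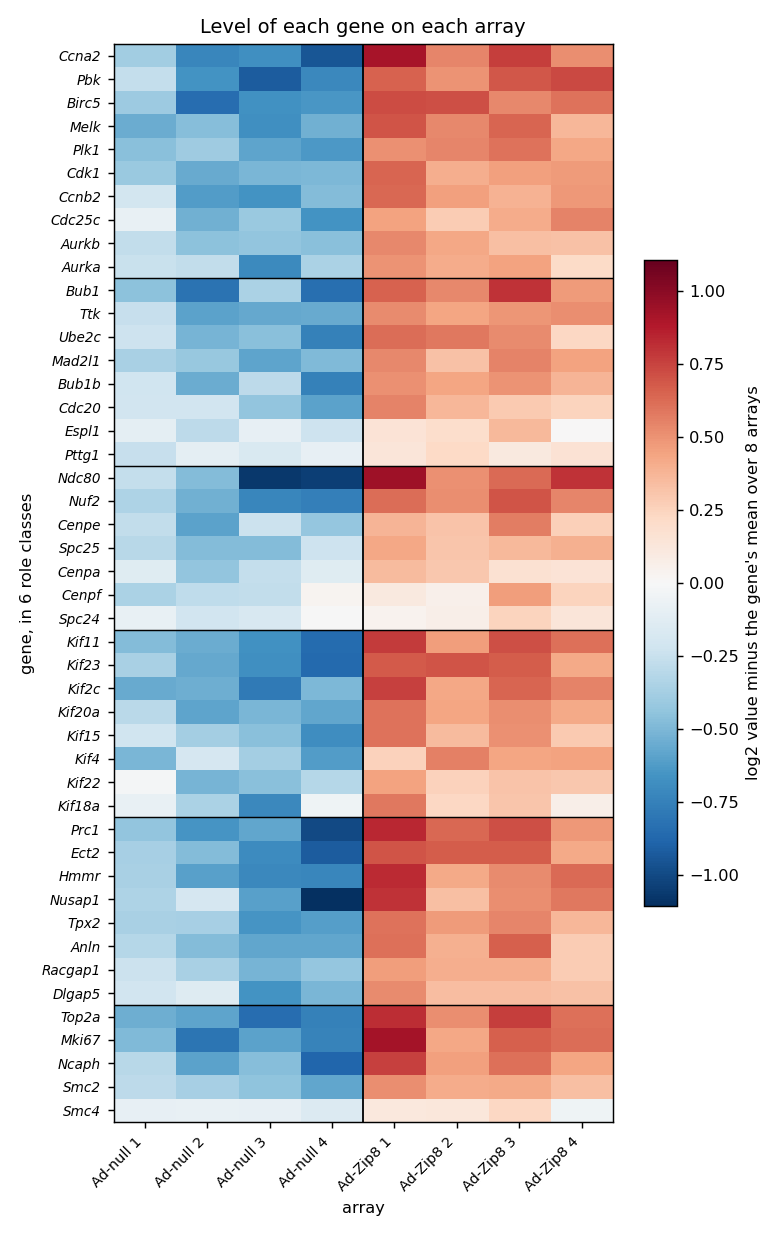
Heat map of the 46 genes (y axis, by role class and then by size of change) on the 8 arrays (x axis), coloured by the log2 value minus the gene's mean over the 8 arrays. The 4 Ad-null arrays on the left are blue and the 4 Ad-Zip8 arrays on the right are red for nearly all genes, with pale rows for Smc4, Spc24, Pttg1 and Espl1.

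Genes outside the 48 that work in mitosis showed the same direction with smaller changes on the median. Of 70 measured (77 listed), 46 rose, none fell (0 lower at an unadjusted p under 0.05) and 24 stayed above the threshold. Their median log2 change was 0.51. Iqgap3, a scaffold gene of the IQGAP family, rose 2.11-fold (adjusted p = 2.26e-05), and the spindle protein gene Ckap2l 2.15-fold (adjusted p = 0.000155). Kif20b, a further mitotic kinesin gene, rose 1.83-fold (adjusted p = 0.000156). The list was chosen with earlier results of these arrays known, and the difference in size between it and the members was not tested.

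Of the 14 subunits of the anaphase-promoting complex, the ubiquitin ligase on which Cdc20 and Ube2c act, 0 passed in either direction. At an unadjusted limma p under 0.05, 0 were higher and 4 lower, against 2282 and 2745 of all 22180 genes. The 95% intervals of the subunits' log2 changes lay between -0.49 and 0.33. The smallest adjusted p was that of Anapc4 (1.22-fold lower, adjusted p = 0.0768), which passed with the replicate block (0.0446), the variance trend (0.0205), dim genes left out (0.0255) and without Ad-Zip8 replicate 3 (0.0472). Cdc23, 1.15-fold lower (adjusted p = 0.0887), passed with the variance trend (0.0208) and dim genes left out (0.0216). Thus 2 of the 14 were called lower with the variance trend and with dim genes left out. The count was 1 with the replicate block and without Ad-Zip8 replicate 3. Over all genes the variance trend called 13.7% in either direction (6.38% higher). With dim genes left out, 26.3% of the genes kept were called (11.7% higher). Of 10 genes of cohesin and its loaders, the rings that separase opens, 0 passed (0 at an unadjusted limma p under 0.05), with intervals between -0.32 and 0.29. Rad21, the subunit that separase cuts, had the smallest adjusted p of them (a log2 change of 0.14, adjusted p = 0.276).

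**Figure D4:**
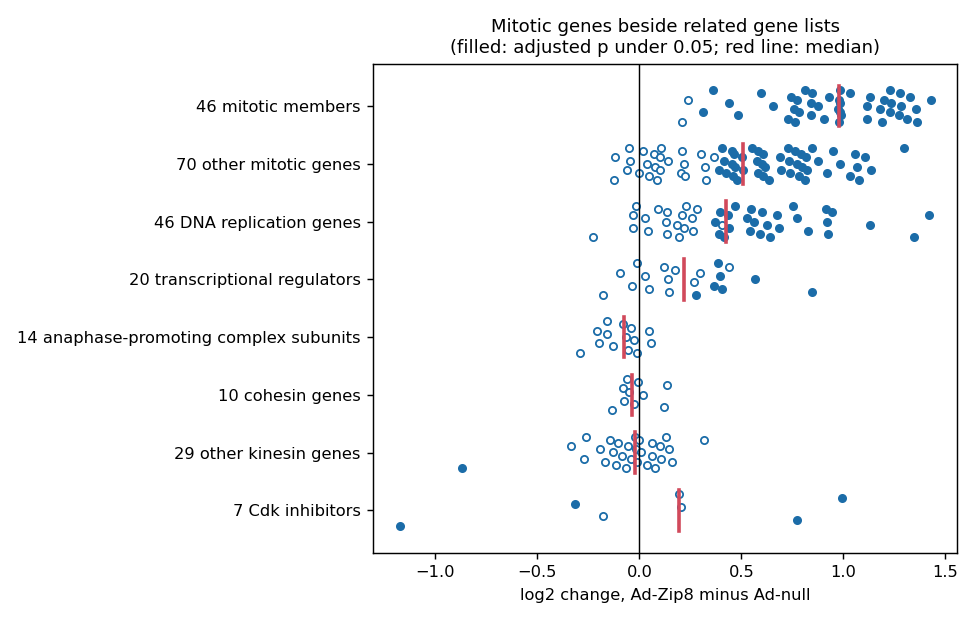
Log2 change, Ad-Zip8 minus Ad-null (x axis), of each measured gene in 8 lists (y axis), with filled points for adjusted p under 0.05, open points otherwise and a red line at the list's median. Members have a median of 0.98, other mitotic genes 0.51 and DNA replication genes 0.43. The medians of anaphase-promoting complex, cohesin and other kinesin genes are -0.07, -0.04 and -0.02, with Kif21b of the other kinesin genes at -0.87.

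Genes of DNA replication, which comes before G2 and mitosis, rose in 27 of 46 measured cases (49 listed), with a median log2 change of 0.43. None fell, with 0 lower at an unadjusted limma p under 0.05. Clspn, the gene of the replication checkpoint adaptor claspin, rose 1.89-fold (adjusted p = 7.08e-05), and Tk1, a thymidine kinase gene, 2.19-fold (adjusted p = 8.23e-05). Chaf1b, a subunit gene of the chromatin assembly factor, rose 2.55-fold (adjusted p = 8.97e-05) and Cdc6, which helps to license replication origins, 1.93-fold (adjusted p = 0.000135).

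Transcriptional regulators of mitotic genes rose in 7 of 20 cases and none fell. The log2 values of Foxm1 were 6.13, 6.45, 5.996 and 6.05 with Ad-null and 7.31, 7.07, 6.81 and 6.81 with Ad-Zip8. Foxm1, a forkhead activator of G2 and M genes, rose 1.80-fold without overlap (log2 change of 0.84, SE 0.14, adjusted p = 0.00311). On the log2 scale Mybl2 stood at 6.74, 6.65, 6.81 and 6.60 with Ad-null and at 7.49, 7.34, 7.25 and 6.98 with Ad-Zip8. Mybl2, the B-Myb gene, whose product joins the MuvB complex at CHR promoters, rose 1.48-fold (log2 change of 0.57, SE 0.11, adjusted p = 0.00846), also without overlap. Lin54 and Lin9, subunit genes of MuvB, rose 1.32- and 1.31-fold (adjusted p = 0.0183 and 0.0241). Rb1, the retinoblastoma gene, rose 1.31-fold (adjusted p = 0.00922, but 0.131 with the mean of its probe sets), and Tfdp2, an E2F partner gene, 1.29-fold (adjusted p = 0.0141). Tfdp1, the other gene of the 7, had a log2 change of 0.28 (adjusted p = 0.0426). Its call was lost without any 1 of the 8 arrays (adjusted p = 0.0622 to 0.115). So it was with the replicate block (0.0509), arrays centred on their medians (0.0661) and all probe sets tested (0.105). The count of 7 fell to 4 without Ad-null replicate 4 and likewise without Ad-Zip8 replicate 1. It was also 4 with all probe sets tested, where Lin54 and Lin9 missed the threshold too (adjusted p = 0.0539 and 0.0674). Lin54 missed the threshold without any one of Ad-null replicates 2, 3 and 4 and Ad-Zip8 replicates 1 and 4 (adjusted p = 0.0507 to 0.057), and Lin9 without any one of Ad-null replicates 1, 3 and 4 and Ad-Zip8 replicates 1, 2 and 3 (0.0563 to 0.0678).

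The inhibitors of cyclin-dependent kinases moved both ways. Cdkn2b and Cdkn2c, genes of INK4 inhibitors of the G1 kinases, rose 1.99- and 1.71-fold (adjusted p = 0.000158 and 0.00113). With Ad-null, Cdkn1c gave log2 values of 10.53, 10.76, 10.41 and 10.47, and with Ad-Zip8 9.14, 9.64, 9.30 and 9.39. This gene of the inhibitor p57 fell without overlap, 2.26-fold lower (log2 change of -1.17, SE 0.12, adjusted p = 0.000178). Cdkn1b, the p27 gene, was 1.24-fold lower (adjusted p = 0.0308), a call lost without Ad-null replicate 1, 2 or 4 (0.0808, 0.0722 and 0.0518) or Ad-Zip8 replicate 1, 3 or 4 (0.0659, 0.0769 and 0.0794). Without any of these arrays 1 inhibitor gene in place of 2 fell. Cdkn2a and Cdkn2d did not pass (log2 changes 0.21 and 0.20, adjusted p = 0.172 and 0.227), nor did Cdkn1a, the p21 gene (adjusted p = 0.258).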

How the data were processed

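The authors deposited 1 log2 value per probe set and array. RMA made these values, per the submitters' processing notes: it corrects background, quantile normalizes the arrays and summarises probes. Its version is not stated in the labels. Differences are compressed at both ends of this scale, and the number of arrays limits the precision. Labelling used biotin, per the labels' protocols.

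The table held 41345 probe sets, of which the platform annotation gives 1 symbol to 23521, several to 1814 and lists no entry for 16010. Of the 23521 probe sets with 1 symbol, 23328 had an Entrez identifier found in the GRCm38.p6 gene table. The symbols of those 23328 were all current. Where a gene had more than 1 probe set (1082 genes), the brightest on average over 8 arrays stood for it, which left 22180 genes. Groups were compared with limma 3.58.1 in R 4.3.3 (lmFit, eBayes, two-sided, no covariates or filter), with Benjamini-Hochberg adjustment over the 22180 genes and a threshold of 0.05. The script was tested on simulated data.

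The members, lists, motifs and alternatives were chosen with earlier results of these data known. By rule, the 3 members per class with the smallest adjusted p, those not past the threshold, Mki67, Top2a and Cdk1 were given array by array, and up to 4 genes of each other list (6 for regulators and inhibitors). Cdkn1a, Tfdp1, Kit, Cd34, Laptm5, Matn1, the condensin genes and the fibroblast and chondrocyte genes were named outside this rule, after their values were seen.

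The replicate numbers 1 to 4 recur in both groups, and no label says what a number marks. Deviations from the group means correlated at 0.11, 0.23, 0.37 and 0.17 between same-numbered arrays, and at -0.27 to 0.16 between others. The same-numbered correlations passed a preset limit of 0.1 for treating samples as pairs. The fit reported nevertheless had no pairing term, and a fit with a replicate block was an alternative. Other alternatives were a variance trend, a filter on dim genes, other scalings, other probe set rules, array weights and leaving out each array.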

Additional observations from a re-analysis of the deposited data

Results flagged for a closer look

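In each group of 4 arrays the highest and lowest value of each member was set against the others by Dixon's criterion (95% critical value for 4 samples), over 92 groups. Chance flags about 1 in 20 groups, and 6 stood apart here. With Ad-null, replicate 1 was far above the other 3 arrays for Aurkb (6.54) and for Ttk (5.50), and replicate 4 was far below them for Smc4 (8.76). With Ad-Zip8, replicate 4 was far below the others for Kif23 (6.53) and Ect2 (9.03), and replicate 1 far above them for Dlgap5 (8.09). In each of these genes every Ad-Zip8 array was still above every Ad-null array.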

How the results depend on the processing

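The count of mitotic members that rose, 44, ran from 40 to 45 over the alternatives and none fell under any of them. It was 41 with arrays quantile normalized again, where the calls of Cenpf, Espl1 and Kif18a were lost. With all probe sets tested it was 40, with Pttg1 lost as well as these. With array weights it was 43, with Cenpf lost. With all genes below the median gene left out, among them the 3 members Birc5, Kif15 and Kif18a, the 43 remaining members all rose. Smc4 and Spc24 were among these. That setting called 11.7% of the genes kept higher, against 5.48% of all genes in the fit reported. Smc4 passed with the variance trend too. Without 1 array at a time the count was 41 to 43, and the calls lost were among Cenpf, Espl1, Kif18a and Pttg1. The replicate block, a paired fit, called the same 44 members and changed none of their calls. The median log2 change of the members lay between 0.93 and 1.03. Other mitotic genes rose in 36 to 47 cases and replication genes in 24 to 30. No change of a member turned direction under any alternative. Some genes of the other lists with changes near 0 did. So did the replication gene Fen1, from 0.22 to -0.01 with the mean of its probe sets. None of those was called in the fit reported. Over all genes the count that fell, 1136, was 708 to 923 without 1 array at a time, lowest without Ad-Zip8 replicate 1 and 721 without Ad-null replicate 1. The main limits are 4 arrays per group, 1 probe set per member and compression at low values.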
